A study of Mus musculus with 12 samples.

Results

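The Hox genes of the mouse were followed across superior cervical ganglion (SCG) tissue, SCG cells grown in 3D and SCG cells grown in 2D. Members were all genes whose symbol is Hoxa, Hoxb, Hoxc or Hoxd followed only by digits and that had an array probe set carrying that 1 symbol. Of 39 such genes in RefSeq, 33 were measured (9 Hoxa, 9 Hoxb, 7 Hoxc and 8 Hoxd genes), out of 18193 genes in all. The other 6 were not analysed here. For the 11 Hox genes with more than 1 probe set, the brightest on average was taken.

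Messenger RNA was measured on Affymetrix Mouse Genome arrays in 3 groups of 4 biological replicates each. SCG tissue was freshly dissected ganglion. The 3D group was SCG cells cultured in polystyrene scaffolds, and the 2D group was SCG cells cultured on a flat Petri dish. The labels give polystyrene for that dish, whereas the methods describe dishes with a glass bottom. All mice were of the CD1 strain, and the labels give an age of 21 days for every group, whereas the methods describe neonatal pups. According to the methods, the substrates of both cultures were collagen-coated, the ganglia were dissociated with enzyme into cells and chunks, and the medium held serum and nerve growth factor. No source states that the cultures held neurons alone. Values are log2 levels, so that a difference of 1 is a 2-fold difference, and levels are compared between groups for 1 probe set and not between genes. The method that made them gives no detection call. Genes with a mean level under 6, a chosen limit, are called dim, and whether they lie above background was not tested.

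Hox genes encode homeodomain transcription factors that give cells along the head-to-tail axis of the embryo their position. They lie in 4 clusters, Hoxa, Hoxb, Hoxc and Hoxd, and genes of low number at one end of a cluster are used in the hindbrain and neck while genes of high number at the other end are used in the trunk, tail and limbs. Genes of the same number in different clusters are paralogs and share roles. Many cells keep the Hox code of the body level they came from, neural crest derivatives and fibroblasts among them, and the SCG is the uppermost sympathetic ganglion, formed by neural crest cells at the level of the neck.

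Some facts about the arrays touch the values below. Markers of sympathetic neurons were high in all 3 groups: the median level of 19 sympathetic neuron genes was 11.2 to 12.98 on tissue arrays, 10.5 to 11.15 on 3D arrays and 10.21 to 12.07 on 2D arrays. Tissue arrays 2 and 3 had a narrower spread of values (SD 2.14 and 1.93, against 2.31 to 2.42 on the other 10 arrays), with dim probe sets raised and bright ones lowered. The median of 20 skeletal muscle genes stood at 7.73, 6.12 and 7.78 on tissue arrays 2, 3 and 4, against 5.03 on tissue array 1 and 5.08 to 5.26 on the culture arrays. Among 2D arrays, 2D array 4 had the lowest summed level of the neuron genes (14.92 on the log2 scale, against 16.26 to 16.46 on the other 2D arrays). In bulk RNA, fewer cells of a type and less RNA per cell cannot be told apart.

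Of the 33 Hox genes, 12 had a level of at least 6 on at least 4 arrays: Hoxa3, Hoxa5, Hoxa7, Hoxa9, Hoxb2, Hoxb3, Hoxb4, Hoxc4, Hoxc6, Hoxc9, Hoxd8 and Hoxd9. The remaining 21 had a mean level under 6 over the 12 arrays. In SCG tissue, Hoxc4, Hoxc5, Hoxc8 and Hoxd3 were higher than in 2D culture and 1 gene, Hoxb2, was lower. Against 3D culture, Hoxa5, Hoxc4, Hoxc5, Hoxc8, Hoxc10, Hoxd1 and Hoxd3 were higher in tissue, and Hoxa3, Hoxb2 and Hoxb3 were lower. Between 3D and 2D culture 0 of the 33 genes passed the test in either direction.

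These calls used limma with an adjusted p under 0.05. Of the Hox genes 12.1% were higher in tissue than in 2D culture, against 9.87% of all genes, and 3.03% were lower, against 14.3% of all genes. Against 3D culture 21.2% were higher, against 15.5% of all genes, and 9.09% were lower, against 20.1% of all genes. Over all genes these shares differed between dim and brighter genes. Of the 21 dim Hox genes 3 were higher and 0 lower than in 2D culture, against 8.36% and 1.69% of all dim genes, and of the 12 brighter ones 1 was higher and 1 lower, against 10.5% and 19.2%. Against 3D culture 5 dim Hox genes were higher and 0 lower, against 11.7% and 3.38% of all dim genes, and 2 brighter ones were higher and 3 lower, against 16.9% and 26.6%. The 4 tissue arrays did not overlap the 4 arrays of 2D culture for 11 Hox genes (33.3%, against 33.8% of all genes), and did not overlap those of 3D culture for 12 (36.4%, against 42.4% of all genes). The median log2 difference of the Hox genes was 0.20 for tissue minus 2D and 0.20 for tissue minus 3D, beside 0.03 and 0.03 over all genes.

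**Figure D1:**
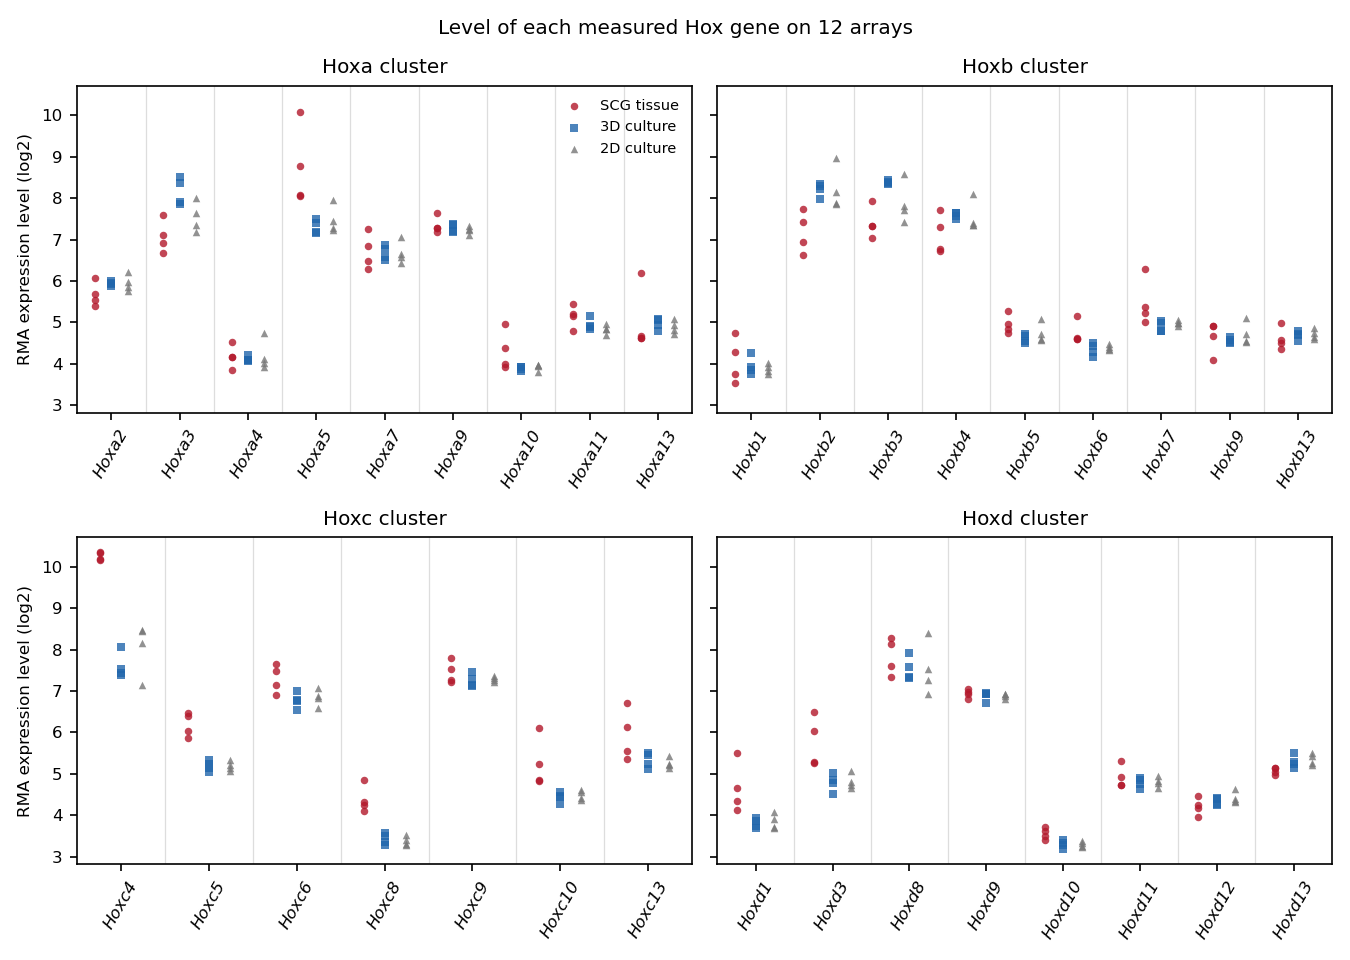
RMA expression level (log2, vertical axis) of each of 33 Hox genes (horizontal axis, in order of paralog number within the 4 clusters). Each point is 1 array, with SCG tissue left, 3D culture in the middle and 2D culture right for every gene. Hoxc4 shows the widest gap between tissue (10.17 to 10.35) and the cultures (7.14 to 8.48), while most genes with a level under 6 overlap between groups.

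The members differed by cluster. All 7 Hoxc genes had a higher mean in tissue than in either culture, with a median log2 difference of 0.82 against 3D, where 4 passed the test, and 0.78 against 2D, where 3 did. All 7 stayed positive under cyclic loess (medians 0.55 and 0.50), with arrays centred on their bright probe sets (1.10 and 1.06) and without tissue arrays 2 and 3 (0.41 and 0.36). The medians against 3D and 2D were 0.07 and 0.12 for the Hoxa genes, 0.09 and -0.08 for the Hoxb genes and 0.20 and 0.19 for the Hoxd genes, and those of Hoxa and Hoxb changed sign with the scaling. They also differed by position within the cluster. The 7 genes of paralog groups 1 to 3, the hindbrain and neck end, had a median of -0.26 against 3D and -0.28 against 2D, which centring took to 0.01 and 0.01 while it took the median of all genes to 0.31 in both. They were split, with 2 called higher and 3 lower against 3D, and 1 higher and 1 lower against 2D. The 12 genes of groups 4 to 8 had medians of 0.46 and 0.40, and the 14 genes of groups 9 to 13, the posterior end, 0.11 and 0.13. Differences between clusters or positions were not tested, and the tissue arrays are the same in both comparisons.

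**Figure D2:**
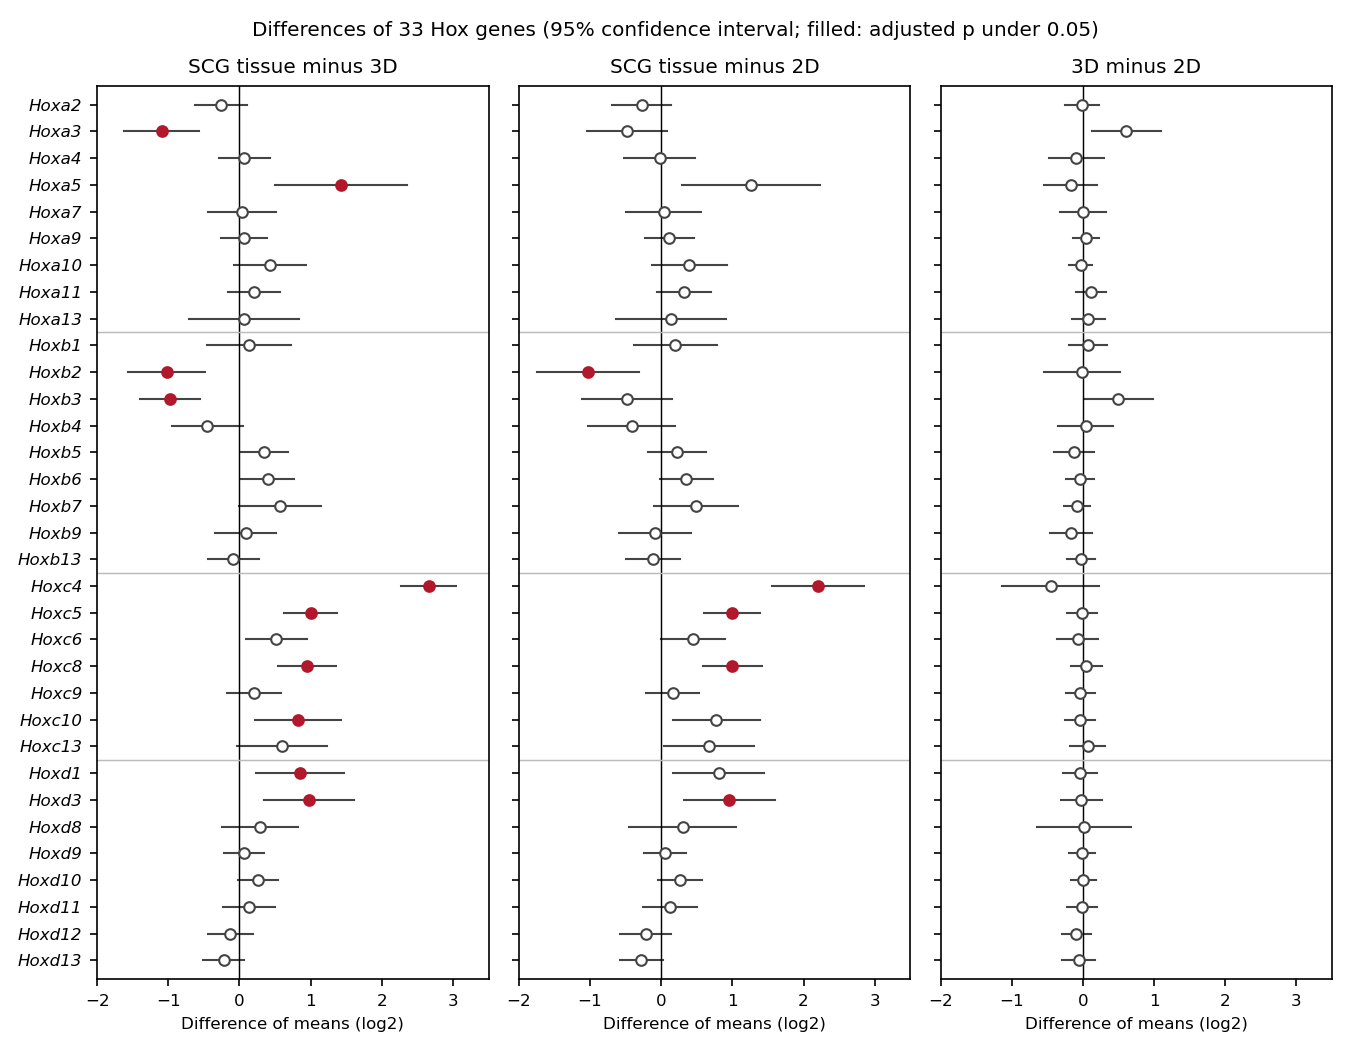
Log2 difference of group means (horizontal axis) for 33 Hox genes (vertical axis, Hoxa to Hoxd from the top), for SCG tissue minus 3D, SCG tissue minus 2D and 3D minus 2D. Bars are 95% confidence intervals and filled points have a limma adjusted p under 0.05: 10 genes against 3D, 5 against 2D and 0 between the cultures.

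Hoxc4, the first gene at the anterior end of the Hoxc cluster and a paralog group 4 member of the neck and upper trunk, differed most among the 33 genes. It had levels of 10.20, 10.35, 10.17 and 10.34 in tissue, against 8.07, 7.39, 7.44 and 7.53 in 3D culture and 8.48, 8.15, 8.46 and 7.14 in 2D culture. Every tissue array stood above every culture array, with a tissue SD of 0.09. Hoxc4 was 6.31-fold higher in tissue than in 3D culture (log2 difference 2.66 ± 0.17 SE, n = 4 each, limma adjusted p = 1.77e-05). It was 4.62-fold higher in tissue than in 2D culture (2.21 ± 0.29 SE, adjusted p = 0.00154).

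Within the cultures the Hoxc4 level went largely with that of the neuron genes. The summed level of the 19 neuron genes on the log2 scale was 16.02, 15.42, 15.32 and 15.47 on the 3D arrays and 16.46, 16.26, 16.30 and 14.92 on the 2D arrays. The arrays with the highest Hoxc4 in each culture, 3D array 1 and 2D arrays 1 and 3, were also those highest in neuron genes, and 2D array 4 was lowest in both. On tissue arrays the neuron sum was 16.98, 16.62, 15.90 and 17.21. Tissue array 3, on which bright probe sets were lowered, had a neuron sum below those of 2D arrays 1 to 3. Its Hoxc4 level was 10.17, against 8.15 to 8.48 on those 2D arrays. The summed level of the muscle genes was 11.96, 13.21, 12.27 and 13.52 on tissue arrays 1 to 4, above the 10.64 to 10.88 on 3D arrays and the 10.57 to 11.52 on 2D arrays. Hoxc4 was 10.35 and 10.34 on tissue arrays 2 and 4, which had the highest muscle sums. It was 10.20 and 10.17 on tissue arrays 1 and 3. The part of neurons and of muscle in the Hoxc4 difference was not tested.

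Hoxc4, Hoxd3 and Hoxa3 are the called genes for which the stretch before a RefSeq start site is shown here, since they moved in opposite directions in tissue (Hoxc4 and Hoxd3 higher, Hoxa3 lower). Each is 250 bases, 5′ to 3′ on the gene's strand, from RefSeq (build GRCm38.p6), with CpG dinucleotides in capitals. The Hoxc4 window lies at chr15:103034145-103034394 on the plus strand, that of Hoxd3 at chr2:74711743-74711992 on the plus strand and that of Hoxa3 at chr6:52213068-52213317 on the minus strand.
Hoxc4: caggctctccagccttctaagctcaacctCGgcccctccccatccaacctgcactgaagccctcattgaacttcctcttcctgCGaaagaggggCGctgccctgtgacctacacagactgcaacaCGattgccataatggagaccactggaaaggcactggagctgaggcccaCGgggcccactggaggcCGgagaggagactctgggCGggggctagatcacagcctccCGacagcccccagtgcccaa
Hoxd3: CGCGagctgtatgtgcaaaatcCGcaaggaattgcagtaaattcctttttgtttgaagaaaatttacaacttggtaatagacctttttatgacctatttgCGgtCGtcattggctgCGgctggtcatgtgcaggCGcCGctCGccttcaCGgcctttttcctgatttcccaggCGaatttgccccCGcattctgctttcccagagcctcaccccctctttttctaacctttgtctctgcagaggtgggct
Hoxa3: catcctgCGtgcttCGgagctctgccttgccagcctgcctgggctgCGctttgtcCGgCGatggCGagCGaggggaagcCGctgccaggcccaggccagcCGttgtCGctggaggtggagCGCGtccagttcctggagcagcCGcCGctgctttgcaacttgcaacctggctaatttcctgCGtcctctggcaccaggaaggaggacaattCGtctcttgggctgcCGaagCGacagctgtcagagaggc
The Hoxc4 window holds 8 CpG dinucleotides, that of Hoxd3 12 and that of Hoxa3 18. Over all 32851 promoter windows of that length the median was 6, and over the 21 windows of the 19 Hox genes in the table it was 13. The letters TGATNNAT, the core of sites bound by Hox proteins together with their Pbx partners, were found on either strand in 3 of the 21 Hox windows, those of Hoxa2, Hoxb1 and Hoxd11, against 7.7% of all windows. CCAAT was found in 11 of the 21, against 33.8% of all windows, and TATAAA in 2, against 12.4%. Matches of different motifs were allowed to overlap. A match describes the letters only. Hoxb2, Hoxb3, Hoxc5, Hoxc8 and Hoxc10 are not in the table.

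Hoxc5, which in the mouse spinal cord acts with Hoxa5 in the motor neurons of the diaphragm, had levels of 5.86, 6.04, 6.46 and 6.39 in tissue, 5.04, 5.25, 5.33 and 5.13 in 3D culture and 5.08, 5.14, 5.34 and 5.22 in 2D culture. Tissue did not overlap either culture. The log2 difference was 1.0 ± 0.17 SE from 3D culture (adjusted p = 0.00225) and 0.99 ± 0.17 from 2D culture (adjusted p = 0.00556). A second probe set of Hoxc5 was also higher in tissue, by 1.88 against 3D (adjusted p = 0.00797) and 1.58 from 2D culture (adjusted p = 0.0312), with 8.0 on tissue array 4 and 5.94 to 6.34 on the others. The remaining one was not called, with differences of 0.35 and 0.25.

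Hoxc8, known in the spinal cord for the identity of motor neurons to the forelimb, was dim on every array. It had 4.32, 4.24, 4.84 and 4.11 in tissue, against 3.51, 3.58, 3.27 and 3.35 in 3D culture and 3.52, 3.41, 3.30 and 3.28 in 2D culture. The groups did not overlap, and the difference was 0.95 ± 0.18 SE from 3D culture (adjusted p = 0.00412) and 1.0 ± 0.18 from 2D culture (adjusted p = 0.00682). Whether Hoxc8 was above background in the cultures was not tested, so these are differences in array signal and not a measured fold change. The calls of Hoxc4, Hoxc5 and Hoxc8 held in both comparisons when any 1 array was left out.

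The other Hoxc genes lay on the same side with smaller differences. Hoxc6, a gene of the brachial spinal cord, had 6.90 to 7.65 in tissue, 6.55 to 6.99 in 3D culture and 6.59 to 7.08 in 2D culture, with differences of 0.52 (adjusted p = 0.0607) and 0.45 (adjusted p = 0.126). Of its other 2 probe sets, 1 was called against 3D (0.52, adjusted p = 0.0187) and not against 2D (adjusted p = 0.299), and the other was not called (0.16 and 0.13, adjusted p = 0.482 and 0.612). Hoxc9, which marks the thoracic spinal cord, differed by 0.20 and 0.16, with adjusted p = 0.353 and 0.469. Hoxc13, the most posterior gene of the cluster, had differences of 0.60 (adjusted p = 0.123) and 0.67 (adjusted p = 0.109).

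**Figure D3:**
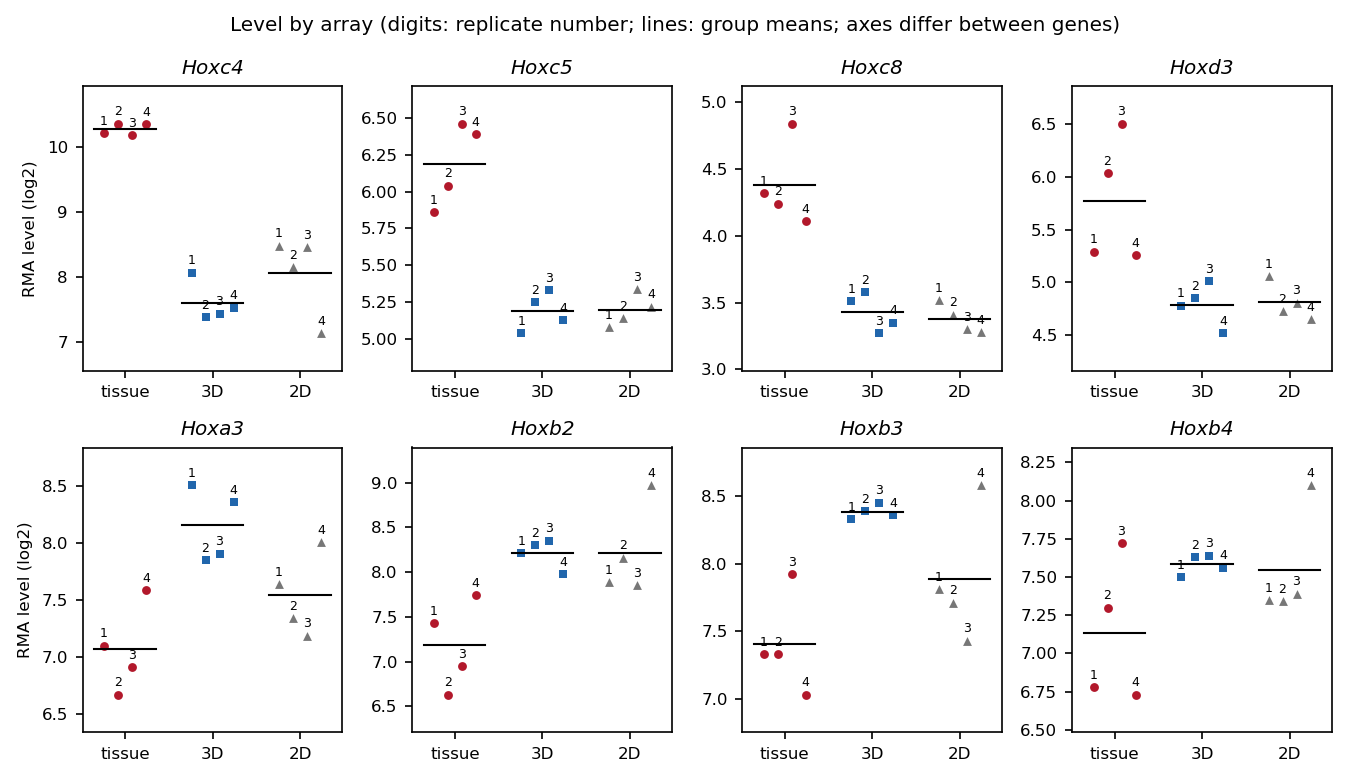
Level (log2, vertical axis, scaled for each gene) of 8 Hox genes on each array, grouped as SCG tissue, 3D culture and 2D culture, with the replicate number beside each point and a line at the group mean. Hoxc4, Hoxc5 and Hoxc8 separate tissue from both cultures on every array, Hoxd3 does so with tissue arrays 2 and 3 on top, and Hoxa3, Hoxb2 and Hoxb3 are lower in tissue than in 3D culture on every array.

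The genes called lower in tissue were of paralog groups 2 and 3. Anterior genes did not all go this way: Hoxd3 of group 3 was called higher against both cultures, and Hoxd1 of group 1 against 3D. Hoxb2, needed for the motor neurons of the facial nerve in the mouse hindbrain, had 7.43, 6.63, 6.95 and 7.74 in tissue, against 8.21, 8.30, 8.35 and 7.98 in 3D culture and 7.89, 8.16, 7.85 and 8.97 in 2D culture. Each tissue array was below each culture array. Hoxb2 was 2.03-fold lower in tissue than in 3D culture (log2 difference -1.02 ± 0.24 SE, adjusted p = 0.0111) and 2.04-fold lower than in 2D culture (-1.03 ± 0.32 SE, adjusted p = 0.0462). The first call held under each of 23 alternatives. The second was lost under 14 of 23, among them the omission of any array but tissue array 4 (differences of -1.15 to -0.78, adjusted p = 0.0524 to 0.125).

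Hoxa3, needed in the mouse for the thymus, parathyroid and carotid body, had 7.10, 6.67, 6.91 and 7.59 in tissue, against 8.51, 7.85, 7.91 and 8.36 in 3D culture and 7.64, 7.34, 7.19 and 8.01 in 2D culture. Tissue lay below 3D culture on every array and overlapped 2D culture. It was 2.13-fold lower in tissue than in 3D culture (-1.09 ± 0.23 SE, adjusted p = 0.00776), and against 2D culture the difference was -0.48 (adjusted p = 0.176). A second probe set of Hoxa3 was also lower than in 3D culture (-0.74, adjusted p = 0.00596) and was not called against 2D culture (-0.69, adjusted p = 0.109). Its other 2, both dim, had differences of 0.15 and 0.33 against 3D and were not called.

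Hoxb3, a paralog of Hoxa3 that shares its roles in the neck, had 7.33, 7.33, 7.92 and 7.03 in tissue, against 8.33, 8.39, 8.45 and 8.36 in 3D culture and 7.81, 7.71, 7.43 and 8.58 in 2D culture. Again tissue was below 3D culture on every array and overlapped 2D culture. Hoxb3 was 1.97-fold lower than in 3D culture (-0.98 ± 0.19 SE, adjusted p = 0.00447), and the difference from 2D culture was -0.48 (adjusted p = 0.219). Its second probe set went the other way without passing the test (differences of 0.32 from 3D and 0.39 from 2D culture, adjusted p = 0.282 and 0.247), so the direction for Hoxb3 rests on 1 probe set. Averaging the probe sets of a gene ended the calls against 3D of Hoxb3 (-0.33), Hoxa3 (-0.34, adjusted p = 0.0846) and Hoxa5 (0.60, adjusted p = 0.0735).

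Hoxb4 and Hoxa2 lay on the same side. Hoxb4, a gene of the hindbrain and neck, had 6.78, 7.30, 7.72 and 6.73 in tissue, 7.50, 7.63, 7.64 and 7.56 in 3D culture and 7.35, 7.34, 7.39 and 8.10 in 2D culture. Tissue arrays 1, 2 and 4 were below all culture arrays and array 3 was not. The difference was -0.45 against 3D (adjusted p = 0.140) and -0.41 from 2D culture (adjusted p = 0.272). Without tissue array 3, Hoxb4 was lower than in 3D culture (-0.65, adjusted p = 0.0116), and so was Hoxa2, the selector gene of the second pharyngeal arch (-0.39, adjusted p = 0.0230). In that setting 5 of the 33 Hox genes were lower than in 3D culture, beside 4047 of all 18193 genes. With all arrays Hoxa2 differed by -0.26 against 3D (adjusted p = 0.224) and -0.28 from 2D culture (adjusted p = 0.283), and centring on bright probe sets took both to about 0 (0.01 and 0.01).

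Fibroblast and glial markers were also lower on some tissue arrays. The summed level of 13 fibroblast genes on the log2 scale was 16.34, 15.18, 14.63 and 16.31 in tissue, 16.46 to 16.63 in 3D culture and 16.16 to 16.70 in 2D culture. Against 3D culture 5 of the 13 genes were lower in tissue and 2 higher, and against 2D culture 4 were lower and 2 higher. That of 12 genes of satellite glia and Schwann cells was 15.43, 14.83, 14.16 and 15.36 in tissue, 15.40 to 15.52 in 3D culture and 15.10 to 15.43 in 2D culture, and 5 of the 12 were lower against each culture, while Mbp was higher against both and Kcnj10 against 3D. Hoxb2 was lowest on tissue arrays 2 and 3, which were lowest for both lists. Tissue arrays 1 and 4, with fibroblast sums of 16.34 and 16.31, had Hoxb2 at 7.43 and 7.74. The culture arrays had Hoxb2 at 7.85 to 8.97. Of 12 endothelial genes, 9 were higher and 0 lower in tissue than in 3D culture, and 7 were higher and 1 lower than in 2D culture. Their summed level was 11.20 to 11.95 in tissue, 10.28 to 10.63 in 3D and 10.43 to 11.29 in 2D culture. Of 12 genes of macrophages and other leukocytes, 7 were higher and 4 lower in tissue than in 3D culture, and 1 was higher and 2 lower than in 2D culture, with sums of 12.26 to 13.08 in tissue, 12.43 to 12.78 in 3D and 10.78 to 13.80 in 2D culture. The part of these cell types in the Hox differences was not tested.

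**Figure D4:**
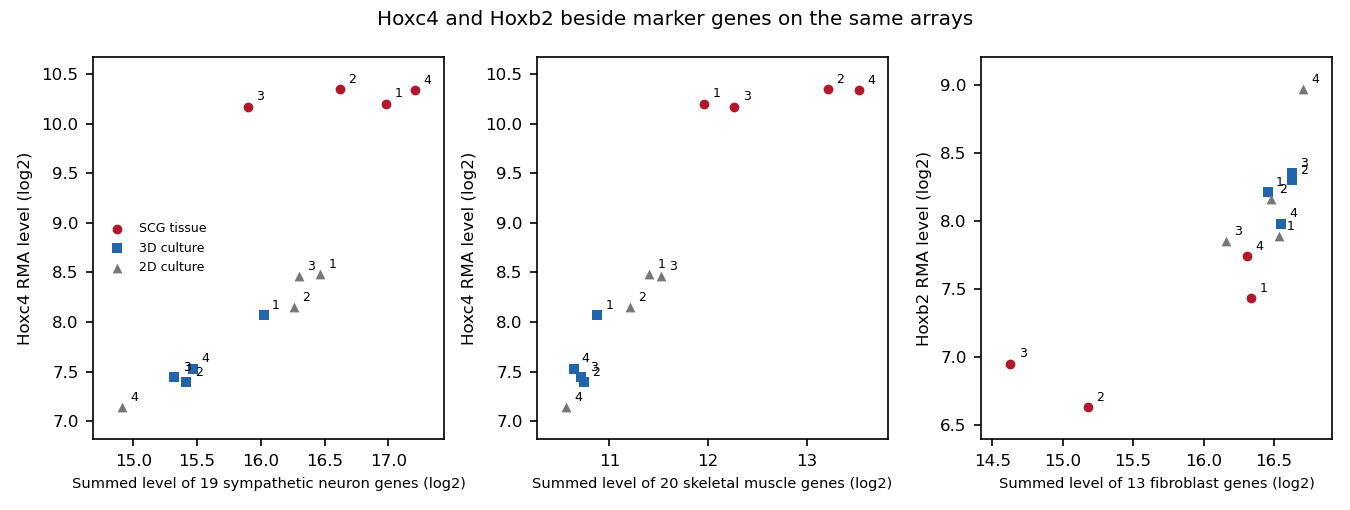
Level of Hoxc4 (left and middle) and Hoxb2 (right) on each of 12 arrays (log2, vertical axes) beside the summed level of 19 sympathetic neuron genes, 20 skeletal muscle genes and 13 fibroblast genes on the same array (log2, horizontal axes). Digits are replicate numbers. The tissue points for Hoxc4 stay between 10.17 and 10.35 while their neuron sums run from 15.90 to 17.21.

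Hoxa5, known in mice for patterning the neck vertebrae and the lung, stood at 8.05, 8.77, 10.08 and 8.07 in tissue, against 7.17, 7.41, 7.49 and 7.18 in 3D culture and 7.24, 7.28, 7.96 and 7.45 in 2D culture. Tissue did not overlap either culture, but its values were spread (SD 0.95), with array 3 highest and array 2 next. The difference was 1.43 ± 0.41 SE against 3D (2.69-fold, adjusted p = 0.0267) and 1.26 ± 0.43 against 2D (adjusted p = 0.0628). Its probe set is of a kind whose probes may also match other transcripts, and the gene's other probe set was lower in tissue without passing the test (differences of -0.23 from 3D and -0.40 from 2D culture, adjusted p = 0.227 and 0.192). The call against 3D was lost when any 1 of the 3D arrays or tissue array 2 was left out (differences of 1.38 to 1.49, adjusted p = 0.0546 to 0.0707). Without tissue array 3 the difference was 0.98 (adjusted p = 0.00501).

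Hoxd3, which in mice shapes the first neck vertebrae, had 5.29, 6.03, 6.50 and 5.26 in tissue, against 4.78, 4.85, 5.01 and 4.52 in 3D culture and 5.06, 4.73, 4.81 and 4.65 in 2D culture. All tissue arrays were above all culture arrays, with arrays 2 and 3 highest. The difference was 0.98 ± 0.28 SE from 3D culture (adjusted p = 0.0269) and 0.96 ± 0.28 from 2D culture (adjusted p = 0.0410). The call against 2D was lost without any 1 of the 2D arrays or tissue array 2 (adjusted p = 0.0682 to 0.114). That against 3D was lost without 3D array 1, 2 or 4 or tissue array 2 (adjusted p = 0.0621 to 0.0801).

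Hoxd1, an anterior gene used by pain-sensing neurons in mice, had 4.12, 4.66, 5.51 and 4.35 in tissue, against 3.69, 3.75, 3.86 and 3.94 in 3D culture and 3.70, 3.71, 3.92 and 4.08 in 2D culture. Hoxc10, a gene of the hindlimb motor neurons, had 4.83, 5.25, 6.10 and 4.86 in tissue, against 4.27, 4.47, 4.45 and 4.57 in 3D culture and 4.36, 4.60, 4.55 and 4.42 in 2D culture. Both were dim, both were separated between tissue and the cultures, and both were highest on tissue array 3. Hoxd1 differed by 0.85 ± 0.27 SE from 3D culture (adjusted p = 0.0415) and 0.81 from 2D culture (adjusted p = 0.0701). Hoxc10 differed by 0.82 ± 0.27 SE from 3D culture (adjusted p = 0.0439) and 0.78 from 2D culture (adjusted p = 0.0690). Without any 1 of the 3D arrays or tissue array 2 the calls against 3D were lost (adjusted p = 0.0798 to 0.0993 for Hoxd1 and 0.0833 to 0.108 for Hoxc10). Both calls held without tissue array 1, 3 or 4, and without tissue arrays 2 and 3 together.

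The dim Hox genes were raised as a group on tissue array 3. Set against the mean of the 8 culture arrays, the median of the 21 dim Hox genes was 0.07, 0.30, 0.79 and 0.07 on tissue arrays 1 to 4, beside 0.06, 0.29, 0.55 and 0.06 for all 19458 dim probe sets. On tissue array 3, 20 of the 21 stood above the culture mean, against 12, 16 and 13 on tissue arrays 1, 2 and 4. Of the called genes, Hoxc5, Hoxc8, Hoxc10, Hoxd1 and Hoxd3 are dim. When tissue arrays 2 and 3 were left out, Hoxc5 and Hoxc8 stayed called in both comparisons, and Hoxc10 and Hoxd1 stayed called against 3D. Hoxd3 stayed called against 3D (0.48, adjusted p = 0.0222) but not 2D (0.46, adjusted p = 0.0632).

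**Figure D5:**
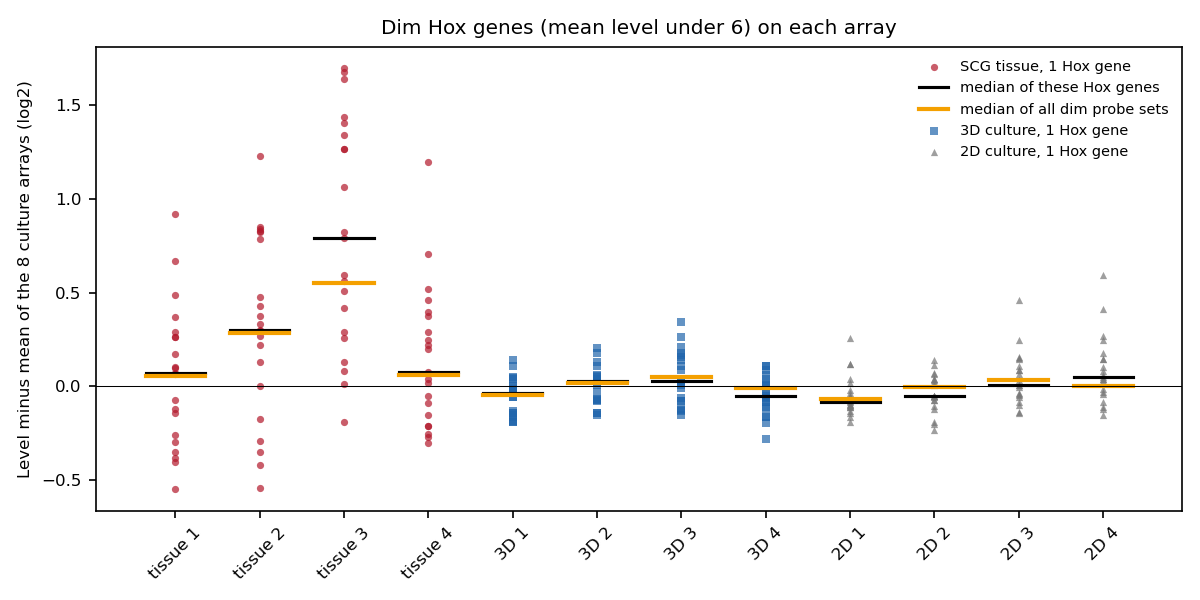
Level minus the mean of the 8 culture arrays (log2, vertical axis) of the 21 Hox genes with a mean level under 6, on each of 12 arrays (horizontal axis). Points are genes, black lines their median and orange lines the median of all 19458 dim probe sets. The medians are highest on tissue array 3, 0.79 for the Hox genes and 0.55 for all dim probe sets.

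The remaining members did not pass the test against either culture. In the Hoxa cluster, Hoxa7 and Hoxa9, both above 6 on every array, had differences of 0.04 and 0.07 against 3D, and Hoxa4, Hoxa10, Hoxa11 and Hoxa13 had 0.07, 0.43, 0.20 and 0.07. In the Hoxb cluster, Hoxb1, Hoxb5, Hoxb6, Hoxb7, Hoxb9 and Hoxb13 were all dim, with differences of 0.13, 0.35, 0.40, 0.57, 0.09 and -0.09 against 3D. Hoxb6 was on every tissue array (4.59 to 5.16) above every array of 3D (4.17 to 4.51) and 2D culture (4.33 to 4.47). In the Hoxd cluster, Hoxd8 and Hoxd9 were the only genes with a mean level above 6, with differences of 0.29 and 0.06 against 3D. Hoxd8 ranged from 7.34 to 8.27 in tissue, 7.32 to 7.91 in 3D culture and 6.93 to 8.39 in 2D culture, while Hoxd9 stayed between 6.70 and 7.05 on all 12 arrays. Hoxd10, Hoxd11, Hoxd12 and Hoxd13 were dim, with differences of 0.26, 0.14, -0.13 and -0.22 against 3D.

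The 2 cultures were compared next, to ask whether growth in a scaffold moved the Hox genes. Of the 33 genes 0 were higher and 0 lower in 3D than in 2D culture by limma, against 0.0165% and 0% of all genes, and 0 did not overlap, against 7.36% of all genes. At an unadjusted p under 0.05 there were 2 higher genes and 0 lower ones. The 95% confidence interval of the difference lay within ± 0.5 on the log2 scale for 27 of the 33 genes. The exceptions were Hoxa3, Hoxa5, Hoxb2, Hoxb3, Hoxc4 and Hoxd8, all of them among the 12 brighter genes. The genes within ± 0.5 include all 21 dim ones, and whether those lie above background was not tested. The median difference was -0.015, beside 0.01 over all genes.

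The 2 genes at the unadjusted limma level were Hoxa3 and Hoxb3. Hoxa3 averaged 8.16 ± 0.33 in 3D and 7.54 ± 0.36 in 2D culture (SD, n = 4 each), a difference of 0.61 with an interval of 0.13 to 1.09 (adjusted p = 0.335). Hoxb3 averaged 8.38 ± 0.05 in 3D and 7.88 ± 0.49 in 2D culture, a difference of 0.50 with an interval of 0.01 to 0.99 (adjusted p = 0.427). Hoxc4 averaged 7.61 ± 0.31 in 3D and 8.06 ± 0.63 in 2D culture, a difference of -0.45 with an interval of -1.13 to 0.23 (adjusted p = 0.606). In 2D culture array 4 had the highest Hoxa3, Hoxb2, Hoxb3 and Hoxb4 and the lowest Hoxc4 and neuron genes of its group, and its macrophage genes had the highest sum (13.80, against 10.78 to 12.49 on the other 2D arrays). Without 2D array 4, Hoxb3 was higher in 3D than in 2D culture by 0.73 (adjusted p = 0.0441). Without both 2D array 4 and 3D array 1, Hoxb3 was higher in 3D culture by 0.75 (adjusted p = 0.0172) and Hoxc4 lower (-0.91, adjusted p = 0.00999). Over all 18193 genes, leaving out 2D array 4 gave 62 higher and 61 lower, and leaving out both arrays 446 higher and 911 lower. The 2 arrays left out are the lowest and the highest of their groups in neuron genes, and the part of that in the differences was not tested. They are also extreme in the 2 Hox genes. 2D array 4 had the lowest Hoxc4 (7.14) and highest Hoxb3 (8.58) of its group. 3D array 1 had the highest Hoxc4 (8.07) and lowest Hoxb3 (8.33). Leaving them out widens both gaps by the choice of arrays, so these adjusted p-values cannot test for a culture difference.

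Genes for proteins that act with Hox genes or set their activity were followed through lists, by their messenger RNA. Between 3D and 2D culture 0 genes were called in each of the 6 lists. Beside the tissue counts below, 9.87% of all genes were higher and 14.3% lower in tissue than in 2D culture. Against 3D culture the shares of all genes were 15.5% and 20.1%. Whether any list departs from these shares was not tested. The TALE homeodomain proteins of the Pbx, Meis and Pknox families bind DNA together with Hox proteins. Of their 8 measured genes 0 were called in any comparison. Pbx3, for example, averaged 8.09 ± 0.89 in tissue, 8.70 ± 0.30 in 3D and 8.94 ± 0.04 in 2D culture (SD, n = 4 each), and Meis1 averaged 8.18 ± 1.35, 7.72 ± 0.10 and 8.16 ± 0.19. The spread of both was widest in tissue.

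Polycomb group proteins keep Hox genes silent through marks on histones. Of their 25 measured genes, 1 was higher and 5 were lower in tissue than in 2D culture. Against 3D culture 3 were higher and 7 lower. Ezh2, the enzyme that methylates histone H3 in dividing cells, averaged 7.88 ± 0.23 in tissue, against 10.21 ± 0.04 in 3D and 9.90 ± 0.27 in 2D culture, with differences of -2.33 (adjusted p = 1.33e-05) and -2.02 (adjusted p = 0.000285). Pcgf3 and Rnf2 were lower as well, with differences of -1.38 and -1.39 from 3D and of -1.13 and -1.08 from 2D culture. Phf1, a Polycomb partner that binds a mark of active genes, was higher by 1.36 and 1.41. Genes of dividing cells moved with them: 10 of 11 were lower in tissue against each culture, with a summed log2 level of 11.01 to 11.46 in tissue, 13.59 to 13.84 in 3D and 13.28 to 13.73 in 2D culture. Its part in the Polycomb values was not tested.

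Trithorax proteins keep Hox genes active. Messenger RNA was measured for 12 genes of these and of the demethylases of the Polycomb mark. Kmt2d, a histone methyltransferase, was higher in tissue (by 0.64 compared with 3D and 0.88 compared with 2D culture, adjusted p = 0.0109 and 0.00710). Ash2l, a subunit shared by such enzymes, was lower (-1.16 and -0.96, adjusted p = 0.00129 and 0.0101). Kdm6a, a demethylase, was lower than in 3D culture (-0.76, adjusted p = 0.00208).

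Retinoic acid switches on anterior Hox genes in the embryo, and Cdx proteins act on the middle ones. Of 20 measured genes of these routes, 2 were higher and 6 lower in tissue than in 2D culture, and 2 were higher and 8 lower than in 3D culture. Enzymes that make retinoic acid split: Aldh1a1 averaged 9.10 ± 0.70 in tissue, 7.22 ± 0.34 in 3D and 6.16 ± 0.70 in 2D culture, whereas Aldh1a2 averaged 5.03 ± 0.41 in tissue, 9.46 ± 0.47 in 3D and 8.56 ± 0.73 in 2D culture (SD, n = 4 each). The differences of Aldh1a2 were -4.42 against 3D (adjusted p = 1.55e-05) and -3.53 from 2D culture (adjusted p = 0.000504). Aldh1a3 (-2.68 and -2.45) and Dhrs3, a reductase of the retinoid route (-2.24 and -1.56), fell with it. Egr2, which drives Hoxb2 in the hindbrain and myelin genes in Schwann cells, differed by -4.10 against 3D (adjusted p = 3.60e-05) and -4.62 from 2D culture (adjusted p = 0.000269). Egr2 is also in the list of glial genes.

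Genes that lie beside the Hox clusters but are no Hox genes mostly stayed below the threshold. Of 12 measured, Lnpk, next to the Hoxd cluster, was lower in tissue (differences of -1.09 from 3D and -1.12 from 2D culture, adjusted p = 0.00544 and 0.0196), and no other was called in either comparison. Of 31 other transcription factors of body position, 2 were higher and 4 lower in tissue than in 2D culture and 2 higher and 5 lower than in 3D culture. Dlx1 and Dlx2, genes of the pharyngeal arches and forebrain, were lower, with differences of -3.14 and -2.61 from 3D and of -2.71 and -2.22 from 2D culture. Prrx2, a gene of limb and face mesenchyme, was lower (-1.81 and -0.88, adjusted p = 0.000228 and 0.0310). Tbx2, a gene of heart and limb, was higher than in 3D culture (1.25, adjusted p = 0.00210), with a difference of 0.87 from 2D culture (adjusted p = 0.0682).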

How the data were processed

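Total RNA of 12 samples was labelled with biotin and hybridised to Affymetrix Mouse Genome arrays. The authors deposited 1 table of log2 values per probe set, made with RMA in Affymetrix Expression Console (version not given in the sources used here). RMA subtracts background, equalises the distributions of all arrays and combines the probes of a set, so a shift of most genes at once cannot be seen. No other unit was used, scanner files were not used here and precision is limited by how many arrays there are.

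The 64 controls were left out. Symbols came from the platform annotation: of 45037 probe sets, 34945 have 1 symbol, 932 several and 9160 none here. All 33 Hox genes matched a RefSeq gene record. Pairs of groups (8 arrays) were fitted with limma 3.58.1 in R 4.3.3 (lmFit, eBayes; no pairing), with Benjamini-Hochberg adjustment over the 45037 probe sets and a threshold of 0.05. The labels call the samples biological replicates. Pairwise p-values of single genes were also taken from an exact permutation test over the 70 splits (smallest p 0.0286).

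The members and gene lists were chosen with earlier results of these data known. Every member was named, called ones array by array, and up to 4 called genes per pathway list by smallest adjusted p in either tissue comparison; Pbx3, Meis1, Aldh1a1 and the glial genes Mbp and Kcnj10 were added after their values were seen. No p was adjusted over a list alone. The alternatives were 1 fit of 12 arrays, array weights, a robust prior with a trend, removal of dim probe sets (a level of 6 on 4 arrays, which kept 12 members), cyclic loess, centring, the replicate number as a block, the mean or the most variable probe set of a gene, the methods' t-test, a 2-fold minimum and the omission of arrays. The fit was tested on simulated data.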

Additional observations from a re-analysis of the deposited data

Results flagged for a closer look

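In 99 groups of 4 arrays (33 Hox genes in 3 groups) the highest or lowest array was tested for standing apart from the other three by Dixon's criterion, and 5 did. Chance gives about 1 in 20 such groups. Hoxa13 had 6.19 on tissue array 3, against 4.62 to 4.66 on the other tissue arrays. Hoxb6 had 5.16 on tissue array 3, against 4.59 to 4.63 on the others. Hoxb4 had 8.10 on 2D array 4, against 7.34 to 7.39 on the other 2D arrays. Hoxa4 had 4.20 on 3D array 1, against 4.07 to 4.09, and Hoxd9 had 6.70 on 3D array 2, against 6.92 to 6.95 on the other 3D arrays. Tissue array 3 also had the narrowest spread of all values (SD 1.93), and 2D array 4 the lowest neuron genes of the 2D arrays.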

How the results depend on the processing

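Counts of Hox genes called depended on the processing, while Hoxc4 against 3D, Hoxb2 against 3D, Hoxc5 against 3D and Hoxc8 against 2D kept their calls under all alternatives that tested them. The count higher in tissue than in 2D culture (4) was 8 in 1 fit of all 12 arrays, 1 with the filter on dim probe sets (12 members tested), 7 with centring on bright probe sets, 9 with the methods' t-test unadjusted, 2 with a 2-fold minimum and 1 with tissue array 1 alone. The count lower (1) was 3 with cyclic loess, 0 with centring, 2 with the methods' t-test unadjusted and 0 adjusted, and 0 without tissue arrays 2 and 3, with tissue array 1 alone and without 2D array 4 and 3D array 1. The count higher than in 3D culture (7) was 2 with the dim filter, 11 and 3 with the methods' t-test unadjusted and adjusted, 3 with a 2-fold minimum and 3 without 2D array 4 and 3D array 1. The count lower (3) was 5 with array weights, 5 with cyclic loess, 1 with the mean of the probe sets, and 6 both without tissue arrays 2 and 3 and with tissue array 1 alone. Between 3D and 2D culture, 1 gene was higher by the methods' t-test unadjusted, and 1 was higher and 1 lower without 2D array 4 and 3D array 1. Over all 18193 genes, 446 were higher and 911 lower without these 2 arrays, and 1316 and 802 by the unadjusted t-test. Tissue counts over all genes moved as well. Higher than in 2D culture (1796 in the main fit) were 3267 in 1 fit of all 12 arrays and 3130 by the unadjusted t-test. Lower (2597) were 2378 with cyclic loess. Against 3D culture, 3645 were higher by the unadjusted t-test and 1370 with a 2-fold minimum (2815 in the main fit). Lower (3660) were 4561 with array weights, 3406 with cyclic loess and 4483 without tissue arrays 2 and 3. Leaving out 1 array gave 3 to 8 higher and 0 to 1 lower in tissue than 2D. It gave 3 to 9 higher and 3 to 5 lower in tissue than 3D, and 0 to 1 higher in 3D than 2D. Over all genes it gave 868 to 2070 higher and 1475 to 3142 lower in tissue than 2D. Against 3D these were 1817 to 3505 and 2553 to 4363, and 0 to 62 genes were higher in 3D than 2D. Of single genes, 2 turned in tissue against 3D: Hoxa13 to -0.32 without tissue arrays 2 and 3 (adjusted p = 0.0498) and Hoxb9 to -0.47 with tissue array 1 alone (adjusted p = 0.0188). The cause was not tested. With tissue array 1 alone, tissue has no spread of its own: the p-values rest on the culture arrays and assume that tissue varies as they do, so those counts and Hoxb9 have no replicate check.

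Centring moved the median of all genes to 0.31 against either culture, and the calls over all genes to 3021 higher and 1882 lower in tissue minus 2D (1796 and 2597 as deposited) and to 4045 and 2627 in tissue minus 3D (2815 and 3660). Hoxb2 against 2D (adjusted p = 0.0742) and Hoxb3 against 3D were then not called.

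With a replicate block the Hox counts were 4 higher and 1 lower against 2D, with Hoxa5 called in place of Hoxd3 (adjusted p = 0.0517), and 7 and 3 against 3D. Over all genes they were 1600 and 2643 (tissue minus 2D) and 2649 and 3489 (tissue minus 3D). The labels do not say that the numbers pair the samples. Same-numbered arrays correlated in their deviations from the group means by -0.07 to 0.41. Arrays numbered 1 correlated best with their own number in every comparison and those numbered 2 in none, so these values do not decide whether samples were paired.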

Other observations

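Probe sets at the Hox clusters that carry another or a second symbol were not among the 33 genes. A probe set of Hoxd3os1, annotated on the opposite strand at Hoxd3, averaged 7.14 ± 0.49 in tissue, 5.41 ± 0.12 in 3D culture and 5.99 ± 0.12 in 2D culture (SD, n = 4 each). It was higher in tissue by 1.73 against 3D (limma adjusted p = 0.000794) and by 1.15 against 2D (adjusted p = 0.0115), and the difference between 3D and 2D was -0.58 (adjusted p = 0.119). Its second, dim probe set differed by 0.12 and 0.16 and was not called. A probe set shared by Hoxd4 and Hoxd3 averaged 6.85 ± 0.51 in tissue, 5.95 ± 0.11 in 3D and 6.06 ± 0.12 in 2D culture, higher in tissue by 0.90 (adjusted p = 0.0195) and 0.79 (adjusted p = 0.0470). The other shared by Hoxd4 and Hoxd3 was dim and differed by -0.22 and -0.26, and that shared by Hoxb8 and Hoxb7 by -0.01 and 0.11, none of them called. Antisense transcripts at Hoxa11 (2 probe sets) and Hoxb5 were not called in any comparison.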
